A study of Mus musculus with 2 samples.

Results

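Endothelial cell-selective adhesion molecule (Esam) and 8 genes tied to it by sequence or by binding were followed in erythroid progenitors of WT and ESAM-KO mice. The 9 genes were chosen by name, for their family or their binding to it, by a rule that uses no measured value, although earlier results of these data were known when it was made. They are the adhesion molecules Esam, F11r, Jam2, Jam3, Cxadr, Clmp and Igsf5 and the cytoplasmic scaffolds Tjp1 and Magi1, out of 20660 genes that could be named on the array. Adult C57BL/6 mice, 8 to 12 weeks old, either WT or homozygous for the ESAM knockout, had all received 1 injection of 5-fluorouracil (5-FU) at 120 mg/kg. This drug kills dividing cells, so the marrow had to rebuild its red cell lineage. On day 8, pre CFU-E, an early committed erythroid progenitor, were sorted from the marrow of femora and tibiae as Lin- c-Kit+ Sca1- cells with little FCγR and CD41 that carried endoglin and CD150. Marrow of 3 mice was pooled for each sort, and 1 array was hybridised per genotype. The sources used here describe no limit of the knockout to 1 cell type, so the sorted cells came from mice that lacked ESAM in the stroma and vessels too. No array of untreated mice was compared, so both groups share the 5-FU.

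ESAM and the junctional adhesion molecules (JAM) are small membrane proteins with a pair of immunoglobulin domains outside the cell and a short tail inside. The outer domains bind a like molecule on the neighbouring cell or an integrin on a leukocyte, and the tail ends in a motif that docks onto PDZ domains of scaffold proteins. ESAM is best known at the contacts of endothelial cells and on platelets, and it is also carried by haematopoietic stem cells.

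Every value is the processed intensity of a spot, in arbitrary units, as given by the scanner software after local background had been removed. Its error is that of the same software and covers the spot, not the mice. As each genotype had 1 array, SDs and p-values do not exist here, and an effect of genotype cannot be told apart from one of the pool, the sort or the amplification. The arrays held 59305 spots of 55680 probes after control spots were left out. Of these spots, 57.3% were well above background in WT and 61.1% in ESAM-KO, and none was saturated. The lowest intensity that the software placed there was 12.6 in WT and 13.2 in ESAM-KO, and a probe it did not place there is called below measurement. Ratios are log2 differences, ESAM-KO minus WT, after each array was set to its 75th percentile (201.4 and 251.1), a step that lowers every log2 ratio by 0.32. A gene is called past 2-fold, the criterion of the study's methods, where its log2 ratio is beyond 1 in either direction. Of the 14136 named genes with a ratio, 15.4% were past 2-fold. Those higher in ESAM-KO made up 6.99% of the 14136 and those lower 8.43%, and the median log2 ratio of all was 0.0006.

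Esam itself read only somewhat above background on both arrays. The intensity of its 1 probe (NM_027102) was 27.4 ± 3.74 in WT and 20.6 ± 3.38 in ESAM-KO. Before background was removed the spot read 77.0 over a local background of 42 in WT, and 68.0 over 41 in ESAM-KO. Thus the knockout array still carried a signal that the software placed well above background, at 1.57 times the lowest such intensity, against 2.18 times in WT. Esam was 1.66-fold lower in ESAM-KO, a log2 ratio of -0.73 with a software error of 0.31, and -0.41 without scaling. The difference was larger than this error and larger than the spread of replicate spots at like intensity, where 38 probes printed as 8 to 10 spots each had a median SD of 0.32 in log2 ratio. It was not past 2-fold, and 14.1% of the 2102 genes of similar intensity had a lower ratio. Which exons the knockout allele lacks, and whether the probe lies in them, is not given in the sources used here, so the probe does not check the genotype. In pooled cells, fewer cells that express a gene and less RNA per cell cannot be told apart.

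**Figure D1:**
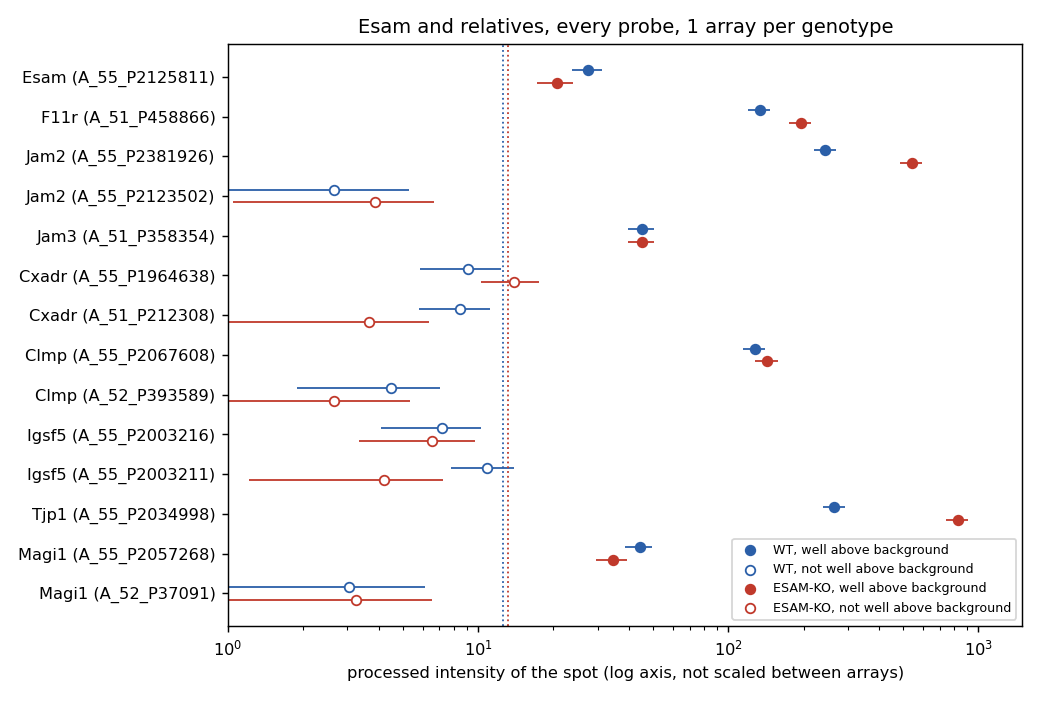
Intensity of all 14 probes of the 9 genes on a log axis, unscaled, with 1 WT spot (blue) and 1 ESAM-KO spot (red) each. Bars are the software error of the spot and run on past the left edge where they reach it. Dotted lines mark the lowest intensity well above background (12.6 and 13.2), and open circles are spots not well above background. The Jam2 and Tjp1 pairs lie far apart and the Jam3 pair coincides.

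The genes next to Esam on its chromosome, looked at after the files had been examined, showed no shared direction. In the order of the RefSeq table, Msantd2 on one side read 40.2 in WT and 83.5 in ESAM-KO (log2 ratio 0.74). Vsig2 on the other side, itself a relative of the JAM proteins, read 54.3 and 69.1 (0.03), and a second probe, above background in WT alone, had a bound of -0.54. Nrgn, which follows Vsig2 and encodes a calmodulin-binding protein of neurons and platelets, read 334 and 175, a log2 ratio of -1.25 that became -0.93 without scaling. Further out, Robo3 had a log2 ratio of -0.19 and Spa17 of 0.55, and Robo4, a receptor of endothelial cells, was below measurement on both arrays.

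The JAM genes proper differed in direction. F11r encodes JAM-A, which holds tight junctions together and binds the leukocyte integrin LFA-1. Its probe (NM_172647) read 134 ± 13.7 in WT against 194 ± 19.7 in ESAM-KO, for a log2 ratio of 0.22 with a software error of 0.21. The difference barely exceeded that error, although replicate spots at this intensity had a median SD of only 0.14.

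Jam2 encodes JAM-B, a ligand of JAM-C and of the integrin VLA-4 that is known from endothelium and marrow stroma. Its brighter probe (NM_023844) read 244 ± 24.7 in WT and 542 ± 54.3 in ESAM-KO. This was 1.78-fold higher in ESAM-KO, a log2 ratio of 0.83 with a software error of 0.21, against a median SD of 0.10 between replicate spots at this intensity. Among 3411 genes of similar intensity, 7.62% had a higher ratio. Jam2 stayed short of 2-fold after scaling and passed it without scaling, at 2.22-fold. A second probe of the same transcript read 2.65 ± 2.66 and 3.85 ± 2.81, not well above background on either array, so the Jam2 value rests on 1 spot per array.

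Jam3 encodes JAM-C, the partner of JAM-B, which is found on endothelium, platelets and stem cells. Its probe (NM_023277) read 45.3 ± 5.43 in WT and 45.1 ± 5.51 in ESAM-KO, the closest pair of unscaled readings among the 7 genes measured on both arrays. Scaling turned these near-equal readings into a log2 ratio of -0.32 (software error 0.25), which was -0.01 without it.

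Of the coxsackievirus and adenovirus receptor branch, only Clmp was measured. Cxadr, the receptor that names the branch, has 2 probes that were not well above background on either array. They read 9.07 in WT and 13.9 in ESAM-KO (NM_001025192), and 8.48 and 3.66 (NM_009988). These readings differ in opposite directions, none was placed well above background (13.9 included), and no fold is given. Clmp, an adhesion molecule of epithelial and fat cells, read 127 ± 13.1 and 143 ± 14.7 (NM_133733), a log2 ratio of -0.15 that was smaller than its software error of 0.21 and turned to 0.17 without scaling. Its other probe read 4.46 and 2.66 and stayed below measurement on both arrays.

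Igsf5 encodes JAM4, an epithelial relative that binds the scaffold MAGI1. One of its probes read 7.17 in WT and 6.53 in ESAM-KO (NM_001177886) and the other read 10.8 and 4.20 (NM_001177887). None of these spots was well above background, so Igsf5 was below the level these arrays measure in both genotypes.

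The scaffolds differed. Tjp1 encodes ZO-1, a PDZ protein that ties JAM-A and claudins to the actin skeleton, and of the 7 genes measured it alone was past 2-fold. Its 1 probe (NM_009386) read 265 ± 26.7 in WT and 825 ± 82.6 in ESAM-KO, from raw readings of 277.0 and 761.5 over local backgrounds of 36 and 33. The scaled difference was 2.49-fold, a log2 ratio of 1.32 with a software error of 0.20, and it was 3.11-fold without scaling. Replicate spots of this intensity had a median SD of 0.09. Of the 3306 genes of similar intensity, 11.5% were past 2-fold and 1.42% had a higher ratio than Tjp1. Over all named genes the share with a higher ratio was 3.66%. As for Esam, F11r and Jam3, no second probe was there to set against it.

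The sequence before the start of Tjp1 is shown because Tjp1 alone of the measured genes was past 2-fold and because GATA factors govern this lineage. It is the 250 bases before 1 RefSeq start of Tjp1, 5′ to 3′, at chr7:65371245-65371494 of GRCm38.p6, on the minus strand, with the 1 match to a GATA motif in capitals, from a RefSeq table that held windows for 3 of the 9 genes.
Tjp1: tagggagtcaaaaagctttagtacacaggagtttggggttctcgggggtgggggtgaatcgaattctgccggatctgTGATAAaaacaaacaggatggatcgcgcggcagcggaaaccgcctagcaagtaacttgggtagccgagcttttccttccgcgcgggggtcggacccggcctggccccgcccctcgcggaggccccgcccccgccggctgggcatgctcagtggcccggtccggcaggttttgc
The motif searched, on either strand, was AGATAA or its variant with a last letter G, AGATAG, and the forms that begin with T, which are TGATAA and otherwise TGATAG. The match begins 173 bases before the start, on the strand shown. Of 32851 mouse windows of this length, 26.5% hold such a match, so 1 match is common. The window has 63.2% G and C against a median of 52.4% over all windows, no TATAAA and 2 matches to GGGCGG on the other strand, motifs that 12.4% and 32.7% of all windows hold on either strand. The other windows, F11r (1) and Magi1 (2), had no GATA match. A match is a string of letters and says nothing of binding.

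Magi1 encodes the membrane-associated guanylate kinase that binds the tail of ESAM. Its brighter probe (NM_001029850) read 44.2 ± 5.41 in WT and 34.5 ± 4.80 in ESAM-KO, 1.60-fold lower, a log2 ratio of -0.68 with a software error of 0.27. Without scaling the ratio was -0.36. Replicate spots of this intensity had a median SD of 0.25, and 17.5% of 3014 genes of similar intensity had a lower ratio. The other probe (NM_001083321) read 3.05 and 3.26, not well above background on either array.

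**Figure D2:**
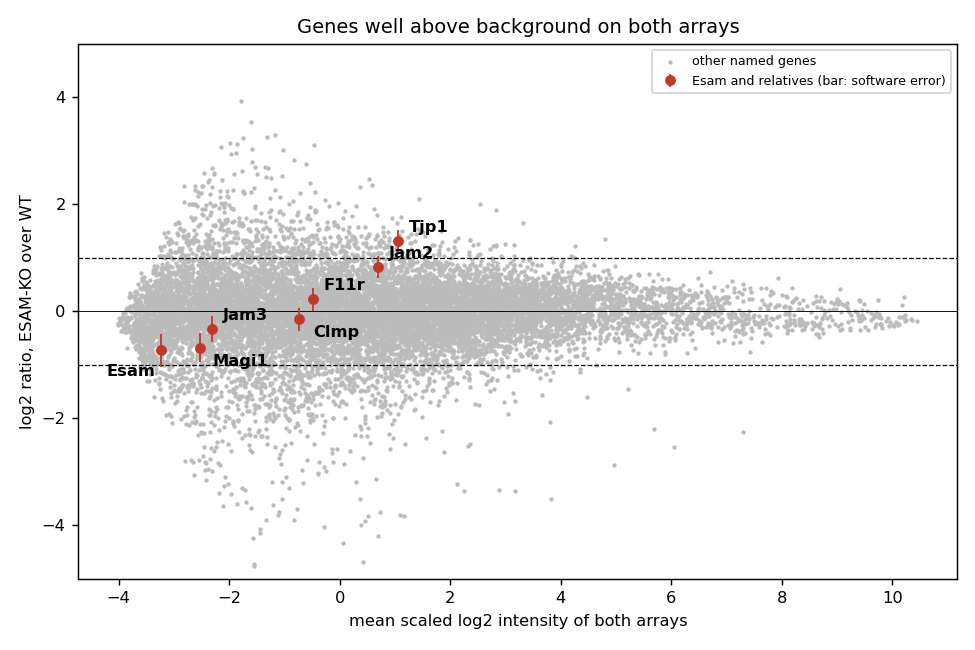
Log2 ratio (ESAM-KO over WT) against the mean scaled log2 intensity of both arrays for named genes well above background on both, with the 7 measured genes in red and their software error as bars. Dashed lines mark 2-fold. Tjp1 lies above the upper line at 1.32, Jam2 just under it at 0.83, and Esam at -0.73 and Magi1 at -0.68 lie short of the lower line.

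As a set, the 9 genes gave 7 with a ratio, 5 of the 7 adhesion molecules and both scaffolds. Of these 7, 1 was higher past 2-fold, none was lower past 2-fold and 6 lay within 2-fold. A share of 15.4% past 2-fold in all genes compares with 1 of 7 here, so the count is near the background. The median log2 ratio of the 7 genes was -0.15, against 0.0006 over all genes, and it became 0.17 without scaling. In 6 of the 7 genes the ratio as reported exceeded its software error, Clmp being the exception. The share of all genes that exceed theirs was not counted, so this does not set the 7 apart. Under other processing more of the 7 fell under their software error. These were Jam3 without scaling and with normexp and quantile normalization (-0.10), and F11r with median scaling (0.09), cyclic loess (0.19) and normexp (0.10). Esam (-0.26) and Magi1 (-0.24) fell under it with normexp alone. Normexp here adds an offset of 50, which draws the ratios of dim spots toward 0. The error it was set against stayed that of the ratio as reported. On scaled values 3 genes lay above 0 (F11r, Jam2, Tjp1) and 4 below (Esam, Jam3, Clmp, Magi1), while without scaling Clmp moved above 0 and Jam3 sat at it.

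**Figure D3:**
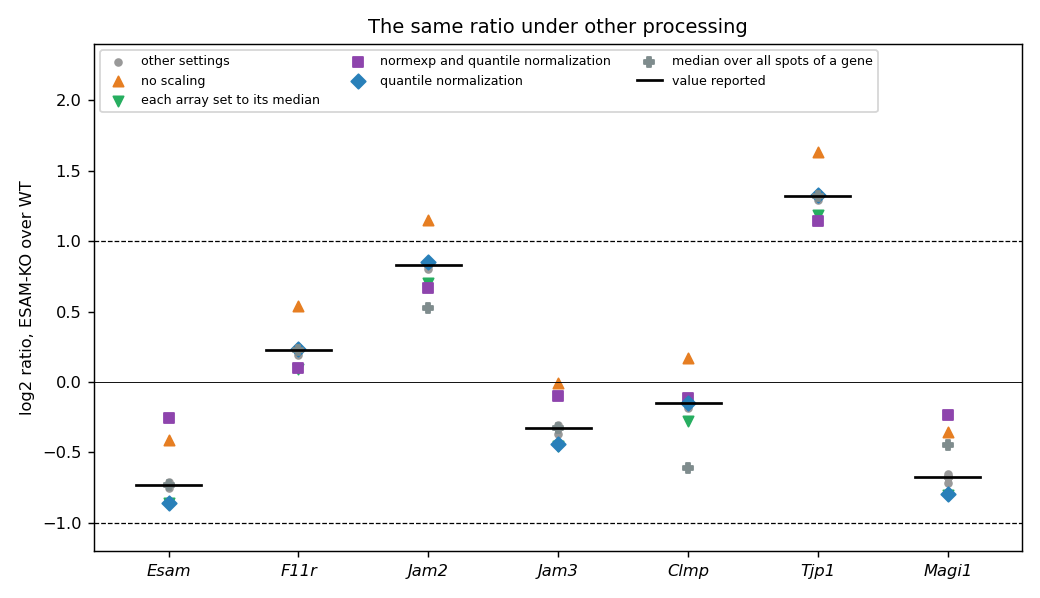
Log2 ratio (ESAM-KO over WT) of the 7 measured genes as reported (black bar) and under 12 other ways of processing the same spots (symbols). Dashed lines mark 2-fold. Tjp1 stayed above 1 in all 12, from 1.14 to 1.64, Jam2 passed 1 only without scaling (1.15), and Esam ranged from -0.86 to -0.26. The settings of filter, outlier spots and probe choice could not move Tjp1 or Esam, which have 1 probe each.

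Around these genes, 6 lists of junction and adhesion genes (103 genes) were described, of which 62 had a ratio. Of these, 5 were higher and 8 lower past 2-fold, 21.0% in all, against 15.4% over all genes. Their median log2 ratio was 0.03. Where a probe was well above background on 1 array alone, the ratio is a lower bound and is written as such, as for 3 of the 13 genes past 2-fold.

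The wider JAM and CTX family was for the most part below measurement. Of 13 relatives, 9 were not well above background on either array, 4 had a ratio and 2 of these were higher past 2-fold. Of all 20660 named genes, 31.1% were not well above background on either array. Mpzl1, a receptor that signals through the phosphatase SHP-2, read 23.5 in WT against 239 in ESAM-KO, for a log2 ratio of 3.03. It was past 2-fold under all 12 alternatives, the lowest being 1.70 with normexp and quantile normalization. Being above background on both arrays, it could not be moved by changes of filter. Vsig10 read 10.8 and 34.7 and was at least 2.21-fold higher. The median of the 4 ratios was 0.76, and it rested on the filter: over all 13 relatives, with dim probes kept, it was -0.20.

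PDZ scaffolds and polarity proteins other than Tjp1 and Magi1 were mostly within 2-fold. Of 26 genes, 18 had a ratio, and at the brightest probe none was higher and 1 was lower past 2-fold. The median log2 ratio was -0.07, and 0.25 without scaling. Second probes differed from this for Cask (30.9 and 139, log2 ratio 1.85) and Dlg1 (176 and 527, 1.27), scaffolds of the guanylate kinase family that were 0.53 and -0.24 at their brightest probes. A further probe of Prkcz, the polarity kinase, had a bound of 1.05 against -0.57 at its brightest. The 1 lower gene was Pard3b, a relative of the polarity protein PAR-3 that JAM tails bind, at 156 in WT against 38.8 in ESAM-KO, for a log2 ratio of -2.32. Close relatives of the scaffolds showed no value past 2-fold. Tjp3 read 54.7 and 77.4, a log2 ratio of 0.18, and Magi2 and Magi3 were not well above background on either array.

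Of the 8 integrin chains that JAM proteins bind or act on, 7 had a ratio, with 1 higher and 1 lower past 2-fold and a median of -0.21 (0.10 without scaling). Itgb2, the shared beta chain of the leukocyte integrins, read 4050 in WT against 2229 in ESAM-KO, for a log2 ratio of -1.18 that became -0.86 without scaling. Its partner Itgal, with which it forms LFA-1, had a log2 ratio of -0.44. Itgam, the alpha chain of Mac1, had 3 probes that disagreed in size, with log2 ratios of -0.21, -1.54 and -0.55, and an antibody to Mac1 was among those used to remove mature cells. Itgax was below measurement on both arrays.

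The chains of VLA-4, the integrin that JAM-B binds, lay within 2-fold. Itga4 had a log2 ratio of 0.29 (-0.04 at its other probe) and Itgb1 of -0.26 (0.27). The vitronectin receptor chain Itgav read 8.13 in WT and 44.4 in ESAM-KO at one probe and was at least 2.83-fold higher, in the same direction as its other probe. Itgb3, which pairs with it and with the platelet chain CD41, gave 0.24 at the brighter of its probes and a bound of 2.66 on the log2 scale at the other.

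Claudins, which form the strands of the tight junction, and the MARVEL proteins found with them were measured in part. Of 24 genes, 11 were not well above background on either array, the MARVEL genes Ocln, Marveld2 and Marveld3 among them. Of 21 claudins, 9 were above background on both arrays, 8 on neither and 4 in ESAM-KO alone. Among all 20660 named genes, 31.1% were above background on neither array and 1621 genes on 1 array alone, a number not split by array here. Of all spots, 57.3% were well above background in WT and 61.1% in ESAM-KO. Of the 12 genes of this list with a ratio, 1 was past 2-fold and the median was -0.03 (0.31 without scaling). That gene was Cldn6, a claudin of embryonic epithelia, which read 3.15 in WT and 114 in ESAM-KO and was at least 7.29-fold higher.

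Nectins and adherens junction proteins had 8 of 16 genes with a ratio, 1 higher and 2 lower past 2-fold, with a median of 0.35 that turned to -0.23 over all 16 with dim probes kept. Nectin2 read 34.2 in WT against 130 in ESAM-KO, for a log2 ratio of 1.61, and 1.02 at its other probe. Jup, or plakoglobin, which anchors cadherins and desmosomes, read 42.3 and 18.7 (-1.49). Vcl, or vinculin, which couples junctions to actin and is abundant in platelets, read 1402 and 691 (-1.34, and -1.49 at its other probe). The classical cadherins of epithelium and endothelium, Cdh1 and Cdh5, were not well above background on either array.

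Other immunoglobulin adhesion molecules of blood and endothelium had more low than high ratios. Of 16 genes, 13 had a ratio, none was higher and 4 were lower past 2-fold, and the median was -0.44 (-0.12 without scaling). Over all named genes with a ratio, 6.99% were higher and 8.43% lower past 2-fold. Vcam1, the VLA-4 ligand of stroma, macrophages and endothelium, read 121 in WT against 20.6 in ESAM-KO, for a log2 ratio of -2.88 (-1.03 at its other probe). Emb, or embigin, an ancillary protein of lactate transporters, read 242 and 53.3 (-2.50). Pecam1, a homophilic adhesion molecule of endothelium and platelets, read 284 and 88.8 (-1.99). Icam1, the ligand of LFA-1, read 138 and 71.6 (-1.27), and it was within 2-fold without scaling (-0.95).

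**Figure D4:**
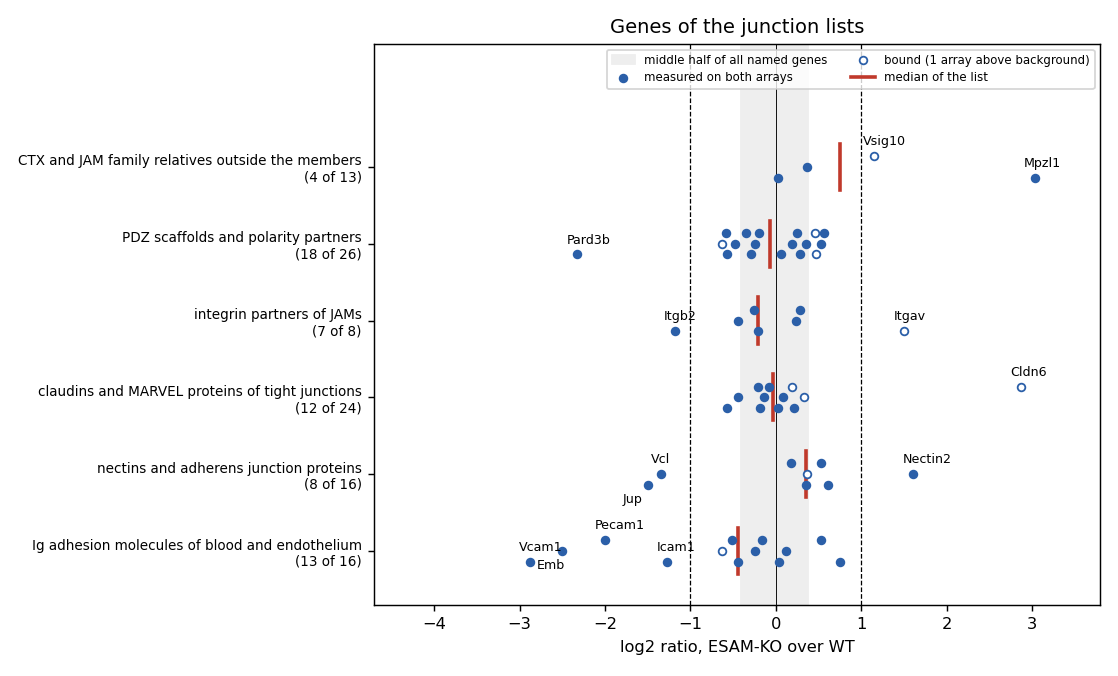
Log2 ratio (ESAM-KO over WT) of each gene with a ratio in 6 lists of junction and adhesion genes, with the number having a ratio of those listed. Filled circles were measured on both arrays and open circles are bounds, the red line is the median of the list, dashed lines mark 2-fold and the grey band holds all named genes between the quartiles of -0.40 and 0.37. Of the immunoglobulin adhesion genes, 4 lie below the lower 2-fold line and none above the upper.

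Markers of other cells differed between the same arrays, and their part in these values was not tested. The counts of each marker list stand beside 6.99% higher and 8.43% lower past 2-fold over all named genes with a ratio. More spots of any kind were well above background in ESAM-KO (61.1%) than in WT (57.3%). For endothelium, the tissue in which ESAM and the JAM proteins are best known, 5 of 14 markers were above background in WT and 9 in ESAM-KO. Their summed intensity was 20.7 and 22.3 times the 75th percentile of its array. The other 5, Cdh5, Tie1, Sox17, Sox18 and Robo4, were not well above background on either array. Most of the sum came from Kdr, a receptor for VEGF (2056 and 2345, log2 ratio -0.13), and Egfl7, a secreted factor (1706 and 2849, 0.42). Of the 9 with a ratio, 3 were higher and 1 lower past 2-fold, led by Pecam1 (-1.99), Vwf (1.28) and Tek, which was at least 2.14-fold higher. The median was 0.42, but 4 of the 9 ratios are bounds of genes above background in ESAM-KO alone, and over the 5 measured on both arrays it was -0.13. For macrophages, 6 of 13 markers on the array were above background in WT and 9 in ESAM-KO, and the median log2 ratio was 0.26. Their sum, 35.1 and 31.8 times the 75th percentile, came mostly from Csf1r (6554 and 7310, log2 ratio -0.16), and without it the sums were 2.54 and 2.71. The other probes of Csf1r were far dimmer. One read 63.2 and 125 (0.66), and the other read 9.99 and 16.1, not well above background on either array. Axl was at least 3.85-fold higher, C1qa had a log2 ratio of 1.19 and Vcam1 of -2.88, and Mrc1, Mertk, C1qc and Cd163 were not well above background on either array.

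Neutrophil genes had the lowest median of the lists described. Of 12, all were above background in WT but 11 in ESAM-KO, 11 were lower past 2-fold, and the median log2 ratio was -3.27. The exception was Csf3r, the receptor for G-CSF, at 50144 and 75698 (0.28). Without it, the other 11 summed to 291 times the 75th percentile in WT and 40.0 in ESAM-KO, and with it to 540.3 and 341. Ltf, Mpo and Lcn2, which encode granule proteins, had log2 ratios of -4.20, -3.82 and -3.50. Neutrophils also carry Itgb2, with a log2 ratio of -1.18, and Itgam, whose 3 probes differed. Itgam was at -0.21 at its brightest probe (76375.5 in WT and 82075.5 in ESAM-KO). It was at -1.54 (270 and 116) and -0.55 (81.7 and 69.8) at the others.

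The genes of the sorting gate were measured except Fcgr2b. Kit read 3414 in WT and 3326 in ESAM-KO (log2 ratio -0.36), Slamf1 or CD150 17.8 and 23.0 (0.05), and Fcgr3 40.9 and 45.5 (-0.17). Eng, or endoglin, read 375 and 269 (-0.80) and Itga2b, or CD41, 35.8 and 29.7 (-0.59). Ly6a, which encodes the Sca1 that the gate excludes, read 61.1 and 12.3 and was at least 5.79-fold lower in ESAM-KO.

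Erythroid genes were above background throughout, 14 of 14 on each array with sums of 370.4 and 245.0 times the 75th percentile, and 4 were lower past 2-fold with a median of -0.37. Slc4a1 (-2.87) and Alas2 (-1.53), genes of maturing red cells, were among these. Slc4a1 was bright, at 17035 in WT and 2904 in ESAM-KO, so the sums depend on it. None was higher past 2-fold. The highest ratio was that of Tfrc, at 0.89, and 1.20 without scaling. Its other probes ranged from 0.23 to 0.87.

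**Figure D5:**
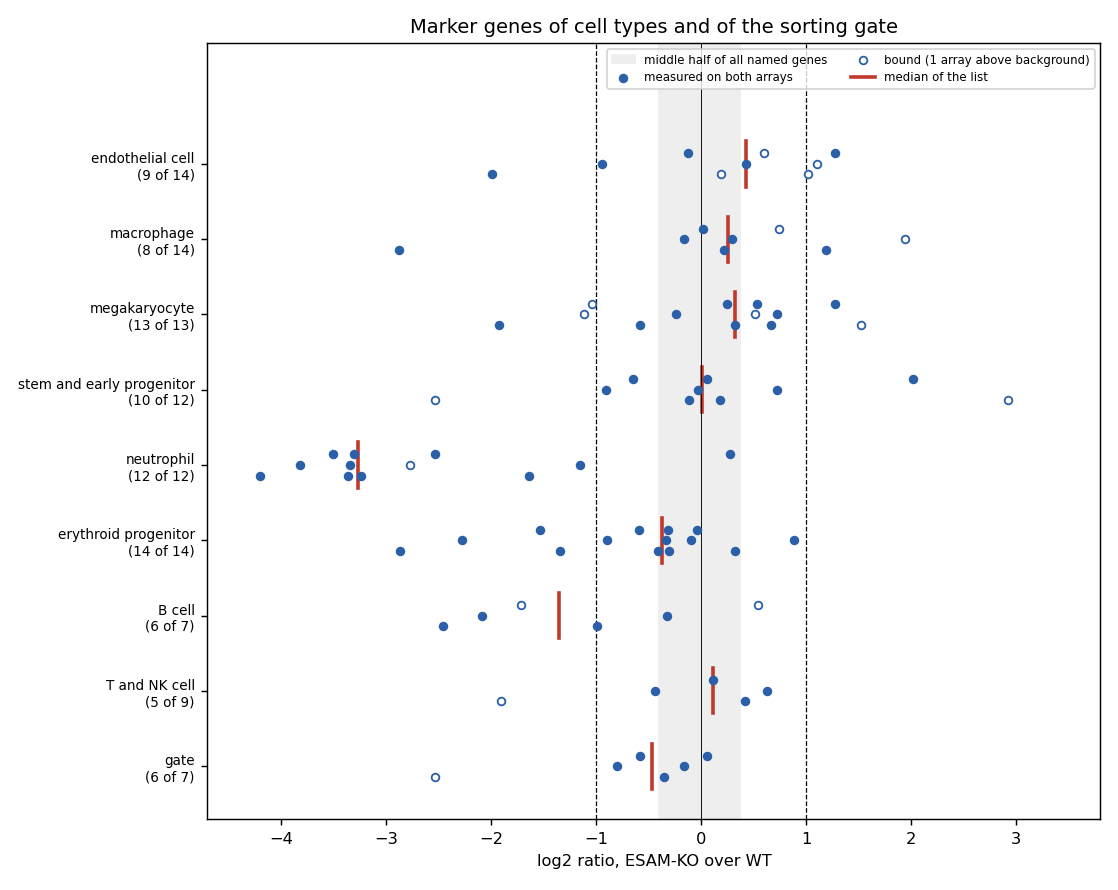
Log2 ratio (ESAM-KO over WT) of marker genes of 8 cell types and of the sorting gate, drawn as in the plot of the junction lists. Of the neutrophil genes, 11 of 12 lie past the lower 2-fold line with a median of -3.27, whereas the endothelial and macrophage medians are 0.42 and 0.26, the former with 4 bounds and at -0.13 without them.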

How the data were processed

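Pre CFU-E of both genotypes were amplified with the Ovation Pico WTA kit, labelled with Cy3 and hybridised to SurePrint G3 mouse arrays, sharing 1 slide and scan. The authors deposited the intensity of every spot from Agilent Feature Extraction 10.10.1.1 (per the submitters' processing notes), background-subtracted and detrended per array, with no scaling between them. From this, log2 intensity minus the 75th percentile of the array was computed here, with 254 outlier spots left out and spots of a probe averaged. A probe was well above background where over 50% of its spots were, and the brightest probe stood for a gene. A bound is the bright reading over the dim one, the latter raised to the lowest signal well above background where it is under it. Amplification can distort dim signals, and the number of arrays limits all precision.

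The files carry accessions, which RefSeq (GRCm38.p6, names only) matched for 27235 probes (48.9%). Probes without a name were left out of the gene counts. Members, lists and the rule for named genes were chosen with earlier results of these data known. That rule takes all members, up to 4 genes past 2-fold per junction list (within 2-fold also for integrins and set scaffolds), all gate genes, and the 3 largest of each marker list. One further list and some list members are not reported here. Of the junction and marker symbols, 8 were older ones that were renamed. Undetected markers, neighbours of Esam and Ocln, Marveld2, Marveld3, Cldn4, Cdh1, Cdh5, Cask, Dlg1, Prkcz, Kdr, Egfl7, Csf1r, Csf3r, Tfrc, Cd4, Cd3e, Nkg7 and Gzmb are outside this rule and were named after their values were seen. Promoters are RefSeq windows of 250 bases before the start.

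Alternatives were other scalings (none, median, shared probes, cyclic loess, quantile), normexp (offset 50) on median spot signals, since mean signals were not used here, the series table, other filters, other rules for a gene's probe, and thresholds of 1.5-fold and 3-fold. Python 3.11.15, numpy 2.4.6, pandas 2.3.3, R 4.3.3 and limma 3.58.1 were used, and the counting was tested on simulated data.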

Additional observations from a re-analysis of the deposited data

How the results depend on the processing

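No paired analysis was possible because WT and ESAM-KO have 1 array apiece. Of 84 values of single genes among the 7 measured, 73 moved by less than their software error and 11 moved by more. Many of the 73 could not move. Changes of filter, the keeping of outlier spots and the mean over probes returned the reported value for all 7 genes. For Esam, F11r, Jam3 and Tjp1, with 1 probe each, the median over spots did so too. Esam went from -0.73 to -0.41 without scaling and -0.26 with normexp. The count of these genes past 2-fold went from 1 to 2 without scaling, 4 at a threshold of 1.5-fold and 0 at 3-fold, and their median log2 ratio from -0.15 to 0.17 without scaling. Over all genes, leaving out scaling raised the median log2 ratio by 0.31, while median scaling moved it by -0.13 and leaving out the filter by -0.14. Past 2-fold, 54.7% of genes were the lower ones in ESAM-KO as reported. This share was 28.8% without scaling, 66.8% under median scaling and 67.3% under normexp, which called 5.04% of genes in place of 15.4%. Of the 7 genes, Clmp alone changed sign, without scaling. Of the 13 junction list genes past 2-fold, normexp left Nectin2 (0.76), Itgav (0.53), Jup (-0.52), Vsig10 (0.26) and Icam1 (-0.83) within it. Its offset of 50 draws the ratios of dim spots toward 0. Dim spots limit Esam, Jam3 and Magi1 most: replicate spots had a median SD of 0.26 among the dimmest of 221 probes and 0.055 among the brightest.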

Other observations

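Other blood cell lists were mixed. Their counts, and those of the lymphoid lists, stand beside 6.99% higher and 8.43% lower past 2-fold over all named genes with a ratio. Megakaryocyte genes, the lineage in which ESAM and JAM-C reach platelets, were above background for 11 of 13 genes on each array, with 2 higher and 3 lower past 2-fold and a median log2 ratio of 0.32. Treml1 read 314 in WT and 103 in ESAM-KO (-1.93), Vwf 59.8 and 181 (1.28), and Gp1ba was at least 2.88-fold higher. Among 12 stem and early progenitor genes, the cells that carry ESAM, 10 had a ratio, 2 were higher and 1 lower past 2-fold, and the median was 0.01, which changed sign under 6 of the 12 alternatives. Hlf, a transcription factor of stem cells, read 14.8 and 140 and was at least 7.58-fold higher, and Mycn read 15.7 and 79.0 (2.01). The 1 lower gene was Ly6a, at 61.1 and 12.3 and at least 5.79-fold lower.

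Lymphoid lists differed. Of 7 B cell genes, 6 had a ratio and 3 were lower past 2-fold (median -1.35): Vpreb1 at -2.45, Cd79b at -2.09 and Ebf1, which was at least 3.29-fold lower. Of 9 T and NK cell genes, 5 had a ratio, with a median of 0.11 (-0.27 with dim probes kept), and 1 was past 2-fold, Cd3d, which was at least 3.75-fold lower. Cd4 (449 and 864, log2 ratio 0.62), Cd3e (0.42) and Nkg7 (1833 and 2465, 0.11) lay above 0 at their brightest probes, and Gzmb lay below it (-0.44). The other probes of Cd4 (-0.06) and Nkg7 (-0.45) also lay below 0.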
